A study of Drosophila melanogaster with 16 samples.

Results

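Tektin-C, CG13032 and CG6660 are 3 protein-coding genes of Drosophila melanogaster whose reads were almost absent from the larval brain together with its attached ring gland (brain and ring gland complex, BRGC) in dfr14, while reads of each remained in the rest of the body of dfr14 larvae. They were found by symbol as 3 of the 9731 genes measured in the BRGC and 3 of the 12509 measured in the body (12984 genes in either). The 3 genes were chosen for their dfr14-minus-control difference in both tissues, so their differences are given as descriptions, with no test. RNA was sequenced from 4 groups of 4 libraries each, namely dfr14 BRGC, control BRGC, dfr14 body and control body, all from wandering third-instar larvae, and BRGCs and bodies came from different animals. The body had been freed of BRGC, mouth hooks and salivary glands. Genotypes here are those of the sample titles, which a separate genotype field of the records contradicts.

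The dfr14 allele is a CRISPR deletion of 14 bases just past the first in-frame stop codon of ventral veins lacking (vvl, also called drifter), which encodes a POU-domain transcription factor. It takes away the longer protein made when ribosomes read through that stop codon. The dfr14 larvae were homozygous. Their line, whose injected parent stock carried vasa::Cas9, had at this stage been outcrossed only to a balancer stock. The control was w1118. Effects of the allele and of other differences between these lines therefore cannot be told apart. The paper also reports that homozygous dfr14 larvae pupariate later than controls. Larvae of the same stage may therefore differ in age between the genotypes, which cannot be separated here either. A count over the whole vvl gene does not show a deletion this small and so does not check the labels. vvl had 90.5 to 116 counts per 1000000 reads (CPM) in dfr14 BRGC, against 63.1 to 68.4 CPM in control BRGC (log2 fold change 0.68 ± 0.09 (SE), adjusted p = 0.00077, limma with Benjamini-Hochberg adjustment over all genes). In the body vvl had 67.7 to 83.3 CPM in dfr14 and 47.8 to 59.4 CPM in control libraries (log2 fold change 0.56 ± 0.11, limma adjusted p = 0.066).

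Tektins are filament proteins that lie inside the doublet microtubules of cilia and flagella. In Drosophila, ciliated cells are few: the type I sensory neurons, such as those of the stretch-sensing chordotonal organs, and the cells that form sperm, whose tail is a long flagellum. Genes of the ELO family, to which CG6660 belongs, encode membrane enzymes of the endoplasmic reticulum that carry out the condensing step by which very long chain fatty acids are lengthened. CG13032 is described here by its values alone.

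The 16 libraries held 17050491 to 30118366 reads each in genes. In the BRGC the summed CPM of 5 neuronal markers was 1100 to 1790 in dfr14 and 1250 to 1640 in control libraries, and that of 8 ring gland markers was 284 to 372 in dfr14 and 445 to 554 in control libraries, so both parts of the labelled tissue were present. Of these 8, dib, sad, nvd and spok, which act in ecdysone synthesis, fell in dfr14 BRGC (4 of 8 called lower and 0 higher, against 5.90% lower and 10.1% higher among all genes of the BRGC, by limma at an adjusted p below 0.05). The remaining ring gland markers were not called, with phm (log2 fold change -0.48) and sro (-0.41) lower and Akh (0.49) and jhamt (0.31) higher. Control body library 4 was unlike the rest of its tissue: 1685 genes had no read there, compared with 32 to 189 elsewhere, and the testis list summed to 39.8 CPM, compared with 685 to 6020 CPM. Salivary gland markers summed to 10100 CPM in control body library 3, 1290 CPM in control body library 4, and 2.91 and 8.08 CPM in control body libraries 1 and 2. In the dfr14 body libraries they summed to 0.0974 to 0.339 CPM, below every control body. Of these 5 markers 0 were called by limma in the body, where 1.41% of all genes were, while 5 had an unadjusted p below 0.05.

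In the BRGC, Tektin-C was the most abundant of the 3 genes per kilobase of exon in control libraries and was close to 0 in dfr14. It had 3, 1, 1 and 3 reads in the dfr14 BRGC libraries, against 3509, 1710, 1638 and 2358 reads in the control BRGC libraries. As levels these were 0.139, 0.0519, 0.0382 and 0.141 CPM in dfr14 BRGC and 111, 72.1, 77.2 and 95.5 CPM in control BRGC. No dfr14 library held more than 3 reads, the limit that a count of 0 allows, which was 0.115 to 0.156 CPM at these depths. The 8 reads of dfr14 were 0.0995% of the control level (95% exact binomial interval 0.0429 to 0.196%). Intervals of this kind cover counting error only. The fitted difference was -9.01 ± 0.25 on the log2 scale, a scale on which a prior count of 2 reads keeps values of near-empty libraries from falling further.

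CG13032 was low but steady in control BRGC and also went to near 0 in dfr14. It had 3, 0, 2 and 0 reads in the dfr14 BRGC libraries, against 343, 255, 231 and 288 reads in the control BRGC libraries. The control libraries spanned 10.7 to 11.7 CPM and the dfr14 libraries 0 to 0.139 CPM. The level was 0.0539 ± 0.0673 CPM in dfr14 and 11 ± 0.42 CPM in control libraries (SD, n = 4 each). The 5 reads left were 0.513% of the control level (0.166 to 1.2%), and the fitted difference was -6.46 ± 0.35 (log2).

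CG6660 varied most among the control BRGC libraries relative to its mean. It had 1, 0, 1 and 9 reads in dfr14 BRGC, against 201, 222, 481 and 238 reads in control BRGC. These were 0.0464, 0, 0.0382 and 0.422 CPM in dfr14 and 6.37, 9.35, 22.7 and 9.64 CPM in control libraries. Control library 3 was the highest, and dfr14 library 4 held 9 of the 11 dfr14 reads. The 11 reads were 1.1% of the control level (0.549 to 1.98%), or 0.265% (0.032 to 0.958%) without dfr14 library 4. The fitted difference was -6.06 ± 0.58 (log2). For each of the 3 genes every dfr14 BRGC library was below every control BRGC library, as were 9.79% of all genes in that tissue, and nothing is read from it, since the 3 were chosen on this contrast.

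**Figure D1:**
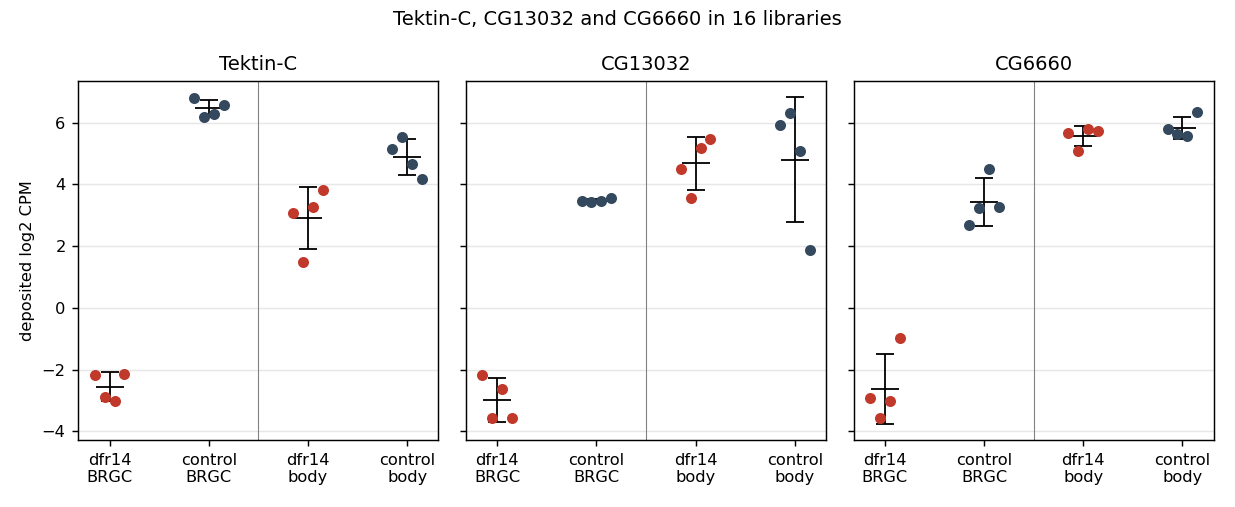
Deposited log2 CPM of Tektin-C, CG13032 and CG6660 in dfr14 BRGC, control BRGC, dfr14 body and control body libraries. Points are the 4 libraries of a group and the bar is the mean with its SD. In the BRGC the dfr14 points lie at -0.98 or lower, while the control points lie at 2.69 or higher, and in the body CG13032 and CG6660 overlap between the genotypes.

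In the body all 3 genes were read in every library. Tektin-C had 123, 56, 265 and 243 reads in dfr14 body, against 729, 1188, 572 and 391 reads in control body. This was 8.33, 2.73, 9.65 and 13.8 CPM in dfr14 and 35.4, 45.7, 25.2 and 17.9 CPM in control libraries. The genotypes did not overlap, as was so in the same direction for 2.53% of all genes in the body. The pooled dfr14 level was 27% of control (24.8 to 29.4%), and the fitted difference was -1.96 ± 0.53 (log2). All genes had a median of 0.12 in the body, set against -0.02 for those of the BRGC.

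CG13032 had 330, 240, 1001 and 771 reads in dfr14 body, against 1238, 2067, 767 and 77 reads in control body. The levels were 22.3, 11.7, 36.5 and 43.9 CPM in dfr14 and 60.1, 79.6, 33.8 and 3.53 CPM in control libraries. Control library 4, which had the fewest testis transcripts, was the lowest of all 8, and the genotypes overlapped. The pooled dfr14 level was 64.0% of control (60.8 to 67.3%), or 49.6% (47.1 to 52.2%) without control library 4. The fitted difference was -0.12 ± 0.98 (log2). The sign of this difference turned to 0.25 without control library 1, 0.39 without control library 2 and 0.25 without dfr14 library 2, and it was -1.10 without control library 4.

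CG6660 was the steadiest of the 3 in the body relative to its mean. It had 742, 691, 1504 and 924 reads in dfr14 body, against 1146, 1285, 1059 and 1765 reads in control body, or 33.6 to 54.8 CPM in dfr14 and 46.7 to 80.9 CPM in control libraries. The genotypes overlapped. The pooled dfr14 level was 83.3% of control (79.9 to 86.8%), or 95.3% (91.0 to 99.8%) without control library 4. The fitted difference was -0.27 ± 0.23 (log2).

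The order of the levels differed from gene to gene. The BRGC and body tables were scaled separately, so levels of the 2 tissues were set side by side without a test. Tektin-C averaged 0.0564 ± 0.0336 CPM per kilobase of exon in dfr14 BRGC, 5.26 ± 2.79 in dfr14 body, 18.9 ± 7.39 in control body and 54.3 ± 10.9 in control BRGC (SD, n = 4 each). No neighbouring groups in that order overlapped. CG13032 averaged 0.0247 ± 0.0308 in dfr14 BRGC, 5.05 ± 0.192 in control BRGC, 13.1 ± 6.57 in dfr14 body and 20.2 ± 15.1 in control body, where control body overlapped both dfr14 body and control BRGC. CG6660 averaged 0.114 ± 0.178 in dfr14 BRGC, 10.8 ± 6.52 in control BRGC, 43.0 ± 8.65 in dfr14 body and 52.3 ± 14.0 in control body, again with overlapping body groups. Tektin-C was thus the highest of the 3 in control BRGC per kilobase, and CG6660 the highest in both body groups.

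The body levels of Tektin-C and CG13032 moved with testis transcripts from library to library. Larval bodies of males contain the testis, and the 43 measured genes of a testis list summed to 1540, 685, 2510 and 2960 CPM in the dfr14 body libraries, against 4340, 6020, 2360 and 39.8 CPM in the control body libraries. None of the 43 was called, where 1.41% of all genes in the body were (limma; 0 also had an unadjusted p below 0.05; median log2 fold change 0.80). The male germ line gene betaTub85D had 155 ± 86.2 CPM in dfr14 and 279 ± 228 CPM in control body (SD). Its control library 4 had 0.0917 CPM, and its log2 fold change was 1.33 ± 2.48 (SE). With errors this wide, neither the sign of the median nor the lack of calls tells whether the list changed. In a bulk sample, fewer testis cells and less RNA per testis cell cannot be told apart.

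Apart from control body library 4, CG13032 kept a similar ratio to these transcripts in both genotypes, slightly higher in dfr14. It had 14.5, 17.1, 14.5 and 14.8 CPM per 1000 CPM of the testis list in dfr14 body, and 13.9, 13.2 and 14.4 in control body libraries 1 to 3. Control library 4 gave 88.6, from 77 reads of CG13032 over few testis transcripts. A least-squares line of CG13032 on the testis sum had a slope of 14.1 ± 0.501 CPM per 1000 CPM in dfr14 and 12.8 ± 0.247 in control body (SE, 4 libraries each). At no testis transcripts these lines stood at 1.42 ± 1.06 CPM in dfr14, where this is an extrapolation, and 3.48 ± 0.962 CPM in control body. No library was more than 1.16 CPM from its line.

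Tektin-C had a like slope in both genotypes and a different height. The slope was 4.33 ± 0.884 CPM per 1000 CPM of the testis list in dfr14 body and 4.65 ± 0.483 in control body. At no testis transcripts the line stood at 0.302 ± 1.87 CPM in dfr14 and at 16.2 ± 1.88 CPM in control body. No dfr14 body library had a testis sum below 685 CPM, so the dfr14 value is an extrapolation. Leaving out each library in turn gave -0.634 to 2.46 CPM in dfr14 and 11.8 to 17.3 CPM in control body, the 11.8 without control library 4, which alone measures this end of the control line. That library had 17.9 CPM of Tektin-C (391 reads) beside 0.0917 CPM of betaTub85D, the tubulin of the male germ line, and 0.0917 CPM of Tektin-A. With betaTub85D alone in place of the list, the line stood at 0.663 ± 1.59 CPM in dfr14 and 16.4 ± 1.87 CPM in control body. The lines were drawn after the values had been seen and rest on the contrast that chose the genes, so the difference in height was not tested.

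CG6660 showed no relation to the testis sum that held in both genotypes. Its highest body level, 80.9 CPM, was in control library 4 with the fewest testis transcripts, and its lowest, 33.6 CPM, in dfr14 library 2, which had the fewest among the dfr14 bodies. Of the 4 control bodies, library 3 (10100 CPM of salivary gland markers) had the lowest CG6660 level, 46.7 CPM, and library 4 (1290 CPM of those markers) the highest, 80.9 CPM.

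**Figure D2:**
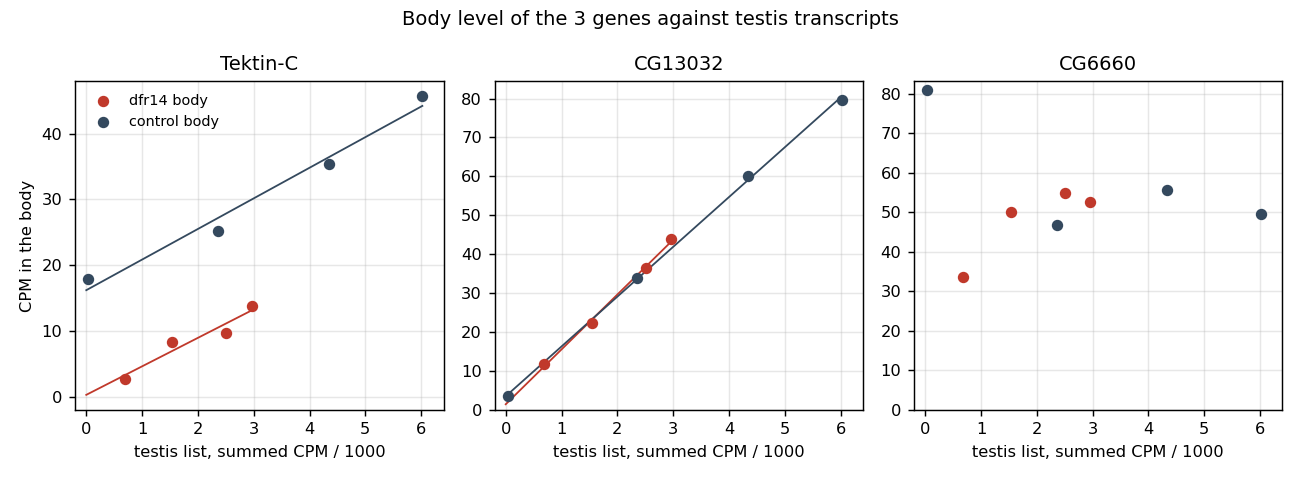
CPM of each gene in the 8 body libraries (vertical) against the summed CPM of the testis list divided by 1000 (horizontal), dfr14 in red and control in dark grey-blue, with a least-squares line per genotype for Tektin-C and CG13032. CG13032 libraries of both genotypes lie near a common line, while for Tektin-C the dfr14 line starts at 0.302 CPM and the control line at 16.2 CPM.

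In the BRGC 10 of the 47 testis genes were measured, summing to 74.1 to 107 CPM in dfr14 and 71.5 to 79.1 CPM in control libraries. Of the 10, mia, a TFIID-type factor of spermatocytes, rose (log2 fold change 0.81) and S-Lap1, a leucyl aminopeptidase of sperm, fell (-1.50). That is 1 higher and 1 lower of 10, against 10.1% higher and 5.90% lower among all genes. The call of S-Lap1 was marginal (limma adjusted p = 0.049), and the list held 1 call with a prior count of 0.25 and without control library 2, 3 or 4 or dfr14 library 1, 3 or 4. betaTub85D had 1.66 to 3.34 CPM in dfr14 BRGC and 2.57 to 4.19 CPM in control BRGC, which overlapped.

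Markers of the other cell types that a BRGC dissection can hold were compared as summed CPM. Glial markers gave 282 to 468 CPM in dfr14 and 272 to 446 in control BRGC, and muscle markers 110 to 178 in dfr14 and 87.7 to 147 in control BRGC. Gut markers gave 0.75 to 35.1 CPM in dfr14 and 0.729 to 22.4 CPM in control BRGC, and the 1 salivary gland marker measured gave 0 to 0.418 in dfr14 and 0.122 to 2.61 in control BRGC. Fat body markers gave 68.1 to 318 CPM in dfr14 and 43.2 to 4030 CPM in control BRGC. None of these markers, nor any of the 5 neuronal ones, was called by limma, where 16% of all genes in the BRGC were. Those with an unadjusted p below 0.05 were 1 muscle marker and the salivary gland marker. Control BRGC library 2 had 4030 CPM of fat body markers and 9.35 CPM of CG6660, while library 3 had 43.2 CPM of fat body markers and 22.7 CPM of CG6660. Tektin-C, at 72.1 and 77.2 CPM, and CG13032, at 10.7 and 10.9 CPM, were alike in these libraries. Some ring gland markers, but not all, were called lower in dfr14 BRGC, as given above. Their part in the loss of the 3 genes was not tested.

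Tektin-C was set beside the other tektin and the genes of cilia. Tektin-A was not listed in the BRGC, so its level there is not known. In the body it had 22.8, 8.08, 36.8 and 32.0 CPM in dfr14, against 61.9, 93.1, 36.7 and 0.0917 CPM in control libraries, overlapping between genotypes (log2 fold change 0.62 ± 1.93, limma adjusted p = 0.97, with a sign that depends on control library 4: -1.46 without it).

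Of 45 genes of the axoneme, of transport within cilia and of their control, 26 were measured in the BRGC, of which 5 rose and 5 fell. This compares with 16% of all genes called in the BRGC by limma at an adjusted p below 0.05, 10.1% higher and 5.90% lower. The median log2 fold change of the 26 was -0.04. CG9313, an intermediate chain of axonemal dynein, had 6.46 ± 2.44 CPM in dfr14 BRGC and 0.275 ± 0.0267 CPM in control BRGC (SD, n = 4 each; log2 fold change 4.11 ± 0.30 (SE), limma adjusted p = 2.4e-05). The BBSome gene BBS4 (log2 fold change 2.91) and the intraflagellar transport genes Oseg2 (1.80) and rempA (0.54) were higher, as was the basal body gene unc (0.84). Levels of BBS4 and Oseg2 were low. BBS4 had 0.994 to 2.65 CPM in dfr14 BRGC and 0.0843 to 0.203 CPM, close to 0, in control BRGC. Oseg2 had 2.18 to 3.32 CPM in dfr14 BRGC and 0.666 to 1.01 CPM in control BRGC. The tubby homologue ktub (-0.68), the intraflagellar transport genes Oseg5 (-1.54) and Oseg1 (-0.28), the ciliogenesis factor Rfx (-0.32) and the proneural gene ato (-0.69) were lower. Calls of Oseg5, Oseg1, Rfx, ato and unc were each lost on leaving out 1 library, for 4 to 7 of the 8 libraries, and the list held 5 calls without control BRGC library 4 and 6 without control library 1, control library 2, dfr14 library 1 or dfr14 library 4. The mechanosensory channel gene nompC, which works in ciliated neurons, had 1.08 ± 0.518 CPM in dfr14 and 1.14 ± 0.215 CPM in control BRGC (log2 fold change -0.18, adjusted p = 0.77). In the body 38 of the 45 were measured and 0 were called by limma, where 1.41% of all genes were called, 1.09% higher and 0.328% lower (2 of the 38 had an unadjusted p below 0.05).

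CG6660 was set beside the rest of the ELO family. Of the other 19 family members 6 were measured in the BRGC, where 1 rose and none fell, against 10.1% higher and 5.90% lower among all genes. bond, an elongase required in the male germ line, had 23.3 to 32.3 CPM in dfr14 BRGC, against 11.6 to 13.4 CPM in control BRGC (log2 fold change 1.06 ± 0.12, limma adjusted p = 0.00032), opposite in direction to CG6660. Baldspot (-0.02), CG31522 (0.00), CG5326 (0.12), CG31523 (0.14) and CG30008 (-0.07) did not pass the test, with standard errors of 0.07 to 0.13 apart from CG30008, which had 0.91. In the body 16 of the 19 were measured and 0 were called by limma (1 had an unadjusted p below 0.05, CG31522, at 0.51 ± 0.20). With 1.41% of all genes called there, a count of 0 tells little about the list.

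Among 10 other enzymes of fatty acid synthesis and elongation, 8 were measured in the BRGC, where 3 fell and none rose (5.90% of all genes were lower), with a median log2 fold change of -0.28. With library size alone as the scaling 5 were called. FASN1, the main fatty acid synthase, had 157 to 225 CPM in dfr14 BRGC and 345 to 490 CPM in control BRGC (log2 fold change -1.04 ± 0.14, limma adjusted p = 0.00098). FASN3, a synthase known in Drosophila from the lipid-making oenocytes, had 3.99, 4.72, 7.61 and 4.12 CPM in dfr14 BRGC, against 14.8, 17.6, 40.7 and 11.1 CPM in control BRGC (log2 fold change -1.89 ± 0.37, limma adjusted p = 0.0086). Control library 3 was the highest for FASN3, as for CG6660. Sc2, an enoyl reductase of elongation, was lower by a smaller amount (log2 fold change -0.39 ± 0.09, limma adjusted p = 0.017), and lost its call without control library 4 or dfr14 library 4. In the body 9 of the 10 were measured and 0 were called by limma (1 had an unadjusted p below 0.05), where 1.41% of all genes were called. FASN3 there had 271 to 418 CPM in dfr14 and 407 to 584 CPM in control libraries (log2 fold change -0.42 ± 0.18, limma adjusted p = 0.37).

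**Figure D3:**
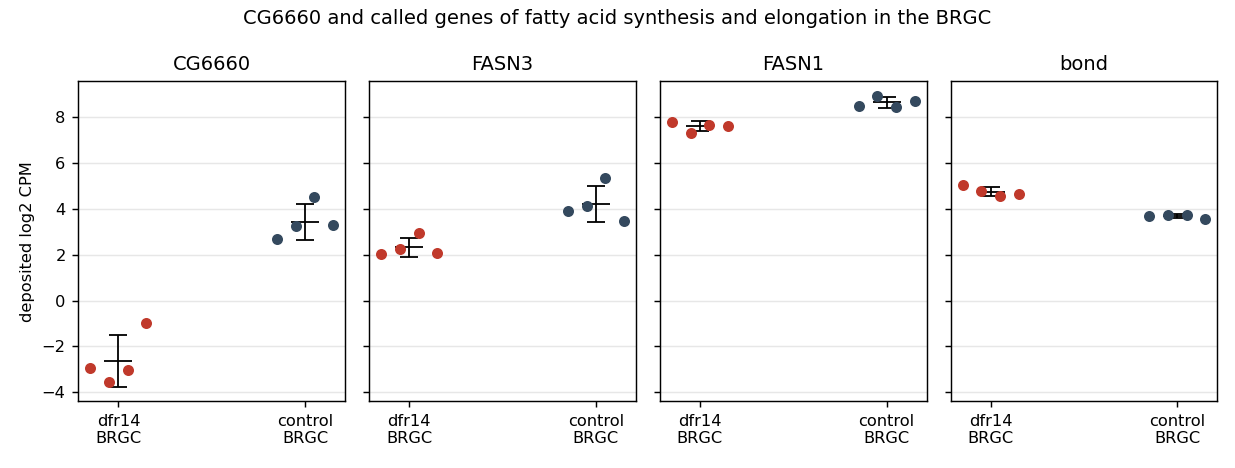
Deposited log2 CPM of CG6660, FASN3, FASN1 and bond in dfr14 BRGC and control BRGC libraries. Points are the 4 libraries of a group and the bar is the mean with its SD. FASN3 and FASN1 were lower in dfr14 by 1.89 and 1.04 log2 units and bond was higher by 1.06, while CG6660, chosen on this contrast, was lower by 6.06.

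The genes on either side of the 3 loci were compared next. Tektin-C lies on chromosome 3L at 5794405 to 5796543 on the minus strand (BDGP6), with 3 annotated transcripts and 4 exon blocks, 0.994 Mb from vvl on the same arm. It overlaps no other annotated gene. CG13032 lies on 3L at 16673964 to 16676264 on the plus strand, with 1 transcript of 3 exons, 9.88 Mb from vvl, and also overlaps no other gene. CG6660 lies on 3R at 22923352 to 22924525 on the plus strand, with 1 transcript of 2 exons, inside an intron of klg on the same strand. klg, a cell adhesion gene, had 86.4 to 120 CPM in dfr14 BRGC and 93.3 to 129 CPM in control BRGC (log2 fold change 0.06 ± 0.13, limma adjusted p = 0.80), so the gene that contains CG6660 was read at overlapping levels where CG6660 was almost absent. In the BRGC 18.6% of the genes on 3L were called and 15% of those on 3R, against 15.5% on 2L, 16.2% on 2R, 12.6% on X and 32.6% of the 92 genes measured on chromosome 4.

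Around Tektin-C the largest called difference in either tissue was that of CG42272, which lies 6.5 kb away on the plus strand, within S6k. It had 4.97, 5.24, 5.05 and 5.57 CPM in dfr14 BRGC, against 23.5, 25.1, 21.2 and 21.4 CPM in control BRGC (log2 fold change -2.11 ± 0.10, limma adjusted p = 1.7e-06). In the body it had 4.4, 3.6, 2.88 and 2.67 CPM in dfr14, against 23.9, 16.1, 17 and 22.7 CPM in control libraries (log2 fold change -2.53 ± 0.24, limma adjusted p = 0.0055). CG42272 was lower in both tissues with no overlap, and the call held on leaving out any 1 library. S6k, a kinase of the growth pathway, runs on the opposite strand over the same stretch, and since the strand setting of the counting is not given in the sources used here, reads of the pair cannot be told apart with certainty.

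The genes at either end of Tektin-C changed little. Bre1, a histone ubiquitin ligase 0.2 kb away, was lower in dfr14 BRGC by a small amount (log2 fold change -0.26 ± 0.07, limma adjusted p = 0.033), and S6k, 1.0 kb away, was higher (log2 fold change 0.44 ± 0.11, limma adjusted p = 0.028). The call of Bre1 was lost on leaving out any of 5 of the 8 BRGC libraries (control 1 and 4, dfr14 2, 3 and 4) and that of S6k on leaving out any of 3 (control 1, dfr14 3 and 4). Cralbp, a retinoid-binding protein gene 7.7 kb away, did not pass the test in the BRGC (log2 fold change -0.74 ± 0.24, limma adjusted p = 0.069) or the body (-1.26 ± 0.39, limma adjusted p = 0.21). Of the 10 measured genes nearest to Tektin-C, 9 were measured in the BRGC, where 1 rose and 2 fell (33.3% called, against 16% of all genes). All 10 were measured in the body, where 1 fell (10% called, against 1.41% of all genes). With so few genes nothing is read from these shares.

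No neighbour of CG13032 was called in the BRGC (0 of 7 measured by limma, against 16% of all genes), where the log2 fold changes ran from -0.71 to 0.49. zetaCOP, a coat protein subunit of the secretory pathway 0.4 kb away (-0.15), and Lasp, an actin-binding protein gene 0.1 kb away (0.49), did not pass the test. In the body 1 of 9 was called by limma (11.1%, against 1.41% of all genes). This was CG9692, 28.7 kb away, with 8.33 to 22.4 CPM in dfr14 and 0 to 0.50 CPM in control libraries (log2 fold change 5.91 ± 0.63, limma adjusted p = 0.0073). PGRP-SB1, 51.0 kb away, had 4.09 to 12.2 CPM in dfr14 and 18.7 to 128 CPM in control body. It was not called (log2 fold change -2.41 ± 0.62, limma adjusted p = 0.14). Baldspot, an ELO gene like CG6660, is also a neighbour, at 12.3 kb.

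Around CG6660 5 neighbours were measured in the BRGC and 1 rose. CG13840, 107.2 kb away, had 3.4 to 13 CPM in dfr14 BRGC and 0.33 to 0.851 CPM in control BRGC (log2 fold change 3.52 ± 0.45, limma adjusted p = 0.00087). In the body 0 of 9 were called by limma. Over the 30 neighbours of the 3 genes, 4 of 21 measured were called in the BRGC (19%, against 16% of all genes), and 2 of 28 in the body (7.14%, against 1.41% of all genes). The neighbours had a median log2 fold change of -0.02 (BRGC) and -0.08 (body). The count in the BRGC was 2 without control library 1, dfr14 library 3 or dfr14 library 4.

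**Figure D4:**
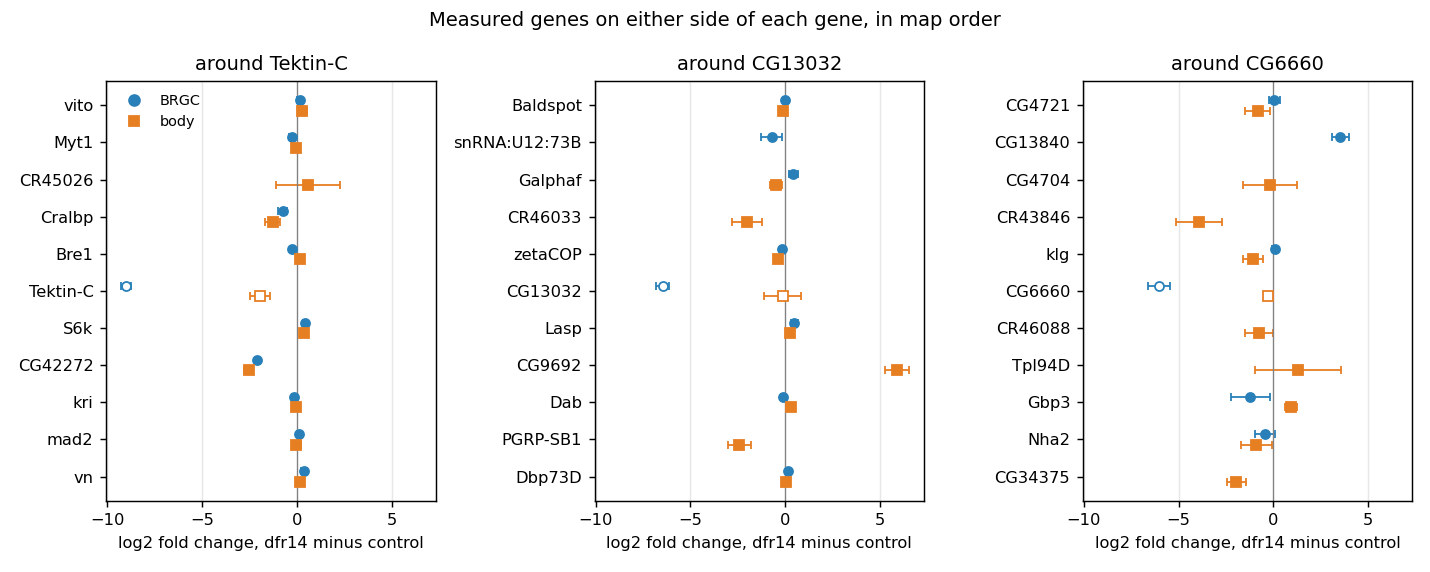
Log2 fold change (dfr14 minus control, with its SE) of the 5 measured genes on either side of Tektin-C, CG13032 and CG6660, in map order, in the BRGC (circles) and the body (squares), with open symbols for the 3 genes themselves. The BRGC differences of -9.01, -6.46 and -6.06 lie below those of all 21 neighbours measured there, and CG42272 lies below -2 in both tissues. Around CG6660 only 5 of 10 neighbours were measured in the BRGC, the nearest apart from klg at 52.7 kb.

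Next in fitted loss in dfr14 BRGC, among genes with a mean of at least 1 CPM in control BRGC, came CR43488, Obp46a, CR45714 and CR45450. The non-coding RNA CR43488 had 0 reads in the dfr14 libraries of both tissues, against 48 to 108 reads in control BRGC and 68 to 129 reads in control body, so it was lost in the body as well. The BRGC fit gave a difference of -5.21 ± 0.34 and the body fit -5.58 ± 0.34, values set in part by the prior count, since all dfr14 libraries were at 0, so that they give no order against CG6660 or CG13032. Obp46a, of the odorant-binding protein family, had a difference of -4.55 ± 1.3 in the BRGC, with 0 to 3 reads in dfr14 and 434, 1, 229 and 79 reads in control libraries. CR45714 had -3.96 ± 0.39, with 1 to 4 reads in dfr14 BRGC and 40 to 104 in control BRGC. CR45450 had -3.86 ± 0.41, with 0 reads in dfr14 BRGC and 21 to 47 in control BRGC, and was not listed in the body. CR45714 was also low in dfr14 body, with 0 to 3 reads against 23 to 56 in control body (log2 fold change -3.40 ± 0.45), and Obp46a had 0 to 4 reads in dfr14 body against 182, 79, 81 and 0 in control body.

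The genes whose pattern was most like each of the 3 were ranked by Pearson's r of the deposited log2 CPM, among 9142 genes in both tables with a mean of at least 1 CPM. These r are descriptions over libraries that share genotype, tissue and scaling. Over the 16 libraries Tektin-C was closest to tut (r = 0.918), Las (0.898), CR45485 (0.891), CG45095 (0.872) and CG13032 (0.852). CG13032 was closest to CG32110 (0.975), CG15547 (0.937), tut (0.933), CG6660 (0.922) and P5CDh2 (0.888). CG6660 was closest to CG8249 (0.930), Cyp6t1 (0.926), CG15547 (0.925), CG13032 (0.922) and Lectin-galC1 (0.916). The 3 genes were chosen for a common loss, so their likeness to each other over 16 libraries is fixed in part by the choice.

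Over the 8 body libraries, among 11541 genes, the 3 separated. CG13032 was closest to bol, a regulator of male meiosis (r = 1.0), CG14995 (0.999), Mst36Fa, a male-specific transcript (0.999), CG33189 (0.999) and CG1971 (0.998). In control body library 4 CG13032 stood at 1.86 log2 CPM, against 3.56 to 6.32 in the rest of the body libraries. How far these r rest on that library was not tested. Tektin-C was closest to CG16812 (0.990), CG42847 (0.969), CG15711 (0.95), Tace, a membrane metalloprotease (0.95), and CG11438 (0.946). CG6660 was closest to CG4666 (0.962), CG31157 (0.958), Sgf29, a subunit of the SAGA complex (0.955), rols, which acts in myoblast fusion (0.946), and Coop (0.924). Among the 3 genes themselves r in the body was 0.476 for Tektin-C with CG13032, 0.497 for Tektin-C with CG6660 and -0.312 for CG13032 with CG6660. None of the 3 was among the 5 genes closest to another in the body, in contrast to the 16 libraries, where CG13032 was among the 5 closest to both others.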

How the data were processed

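Per the labels and the study's methods, Trim Galore was used for trimming, STAR for alignment to BDGP6 and featureCounts for counting per gene. The paper states that genes without counts in either group of a tissue were removed. Each BRGC library, however, lacked reads for only 37 to 71 of the 9731 listed genes. The filter may therefore have been stricter, and a gene that is not listed may still have had reads. The deposited values are log2 CPM per library, made by the authors with edgeR from TMM-scaled library sizes with a prior count of 2. The tables also hold the authors' own fold changes, test statistics, p-values and FDRs, which were not used, and 16 columns of values per sample that were not used. The genotype tags of the sample records contradict the titles, and the titles were followed. The columns of the tables are unnumbered, and libraries are called by their position there.

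A test on counts had been planned, but the tables hold log2 values. dfr14 and control were compared within each tissue by fitting the deposited log2 values with limma 3.58.1 (R 4.3.3, trend on mean level) and Benjamini-Hochberg adjustment over all genes and a threshold of 0.05. The fit was checked on simulated counts with the same relative spread for every gene and changes only in well-read genes. That check does not cover genes near 0 or genes as variable as those of the testis list. Taking off the prior count gave back whole reads (each within 6.4e-08 of a whole number) and from them CPM (reads per 1000000 of scaled library size) and depth, which was 17050491 to 30118366 reads. At that depth 3 reads, the limit a count of 0 allows, are 0.0951 to 0.203 CPM. No library repeats another (chi-square per gene of at least 20.6 for each pair within a group). The study's methods call the 4 libraries of a group biological replicates. Exon lengths and positions came from an Ensembl BDGP6 annotation. Python 3.11.15, numpy 2.4.6, pandas 2.3.3, scipy 1.17.1 and matplotlib 3.10.9 were used.

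The 3 genes and all gene lists were chosen with earlier results of these data known. Genes were named by a rule: the 3 genes, vvl, the next genes by size of loss in the BRGC with at least 1 CPM in controls, the 5 nearest measured genes on each side, tektins (by the names in the table) and ELO genes, up to 4 genes of smallest p and the most abundant ones per list, and the 5 genes most alike. Genes called in the cilium list beyond 4, nompC, and klg in its role as host gene were named after their values were seen. Alternatives were library size alone, RLE factors, dropping genes with low counts (under 10 reads in 4 libraries or 15 in total), a prior count of 0.25, leaving out each library, and, chosen after seeing the data, the testis list as a covariate in the body and other measures of testis transcripts.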

Additional observations from a re-analysis of the deposited data

Results flagged for a closer look

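Of the 12 groups of 4 libraries tested over the 3 genes, 2 had 1 library far from the other 3. Chance alone marks about 1 group in 20 where groups are independent. These 12 share libraries between genes, some hold counts near 0, and counting error was not allowed for. No excess of odd libraries is therefore read from the 2. CG6660 in dfr14 BRGC library 4 stood at 0.422 CPM (9 reads), against 0 to 0.0464 CPM in the other dfr14 BRGC libraries. CG13032 in control BRGC library 4 stood at 11.7 CPM, against 10.7 to 10.9 CPM in the other control BRGC libraries, a group whose whole spread is small.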

How the results depend on the processing

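RLE factors and the filter on low counts moved none of these counts by over 1.5 times and turned no direction of the 3 genes. With a prior count of 0.25 the BRGC differences became -9.91 for Tektin-C, -8.31 for CG13032 and -7.49 for CG6660 (log2), and 1 gene of the testis list was called in the BRGC. With library size alone 782 genes were called higher and 988 lower in the BRGC, against 980 higher and 574 lower, 113 higher and 81 lower in the body, against 136 higher and 41 lower, and 5 of the other fatty acid genes were called in the BRGC. The median over all genes was then -0.10 in the BRGC and -0.12 in the body. With the testis list as a body covariate, an alternative picked once the data had been seen, 588 genes were called in the body (344 higher and 244 lower), with 1 gene of the testis list and 5 of the neighbours, and the body differences were -2.11 ± 0.42 for Tektin-C, -0.56 ± 0.22 for CG13032 and -0.22 ± 0.21 for CG6660. The cause of these shifts was not tested.

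Leaving out each library in turn gave -9.14 to -8.85 for Tektin-C, -6.73 to -6.26 for CG13032 and -6.61 to -5.70 for CG6660 in the BRGC, and in the body -2.26 to -1.49 for Tektin-C, -1.10 to 0.39 for CG13032 (reversed at 0.25 and 0.39, as given above) and -0.37 to -0.10 for CG6660. Calls then ran from 901 to 1613 in the BRGC (633 to 963 higher, 268 to 650 lower, fewest without dfr14 or control library 4) and from 72 to 245 in the body (57 to 143 higher, 14 to 102 lower). In the BRGC 5 to 10 genes of the cilium list, 1 to 2 of the testis list, 2 to 4 of the other fatty acid genes and 2 to 5 neighbours were called. No paired analysis was possible because the columns carry no replicate numbers. Reads in dfr14 BRGC were few but not absent, at 8 for Tektin-C, 5 for CG13032 and 11 for CG6660, of which 9 were in library 4. Whether so few reads mark expression of these genes was not tested.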
